A study of Mus musculus with 15 samples.

Results

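Distal H3K27ac peaks without an ATAC-seq peak are stretches of chromatin that carried the acetylation mark of active enhancers but in which no accessible site was called. They were chosen by the positions of H3K27ac, H3K4me3 and ATAC-seq peaks in the mouse EL4 line, as merged autosomal H3K27ac peaks that were touched by intervals of both replicates, touched neither a merged H3K4me3 nor a merged ATAC-seq peak, and lay more than 3 kb from both ends of every GRCm38 RefSeq gene. Of 27594 merged autosomal H3K27ac peaks, 23122 were touched by both replicates, and 3609 of these (15.6%) met the rule. Of the 4704 distal H3K27ac peaks without H3K4me3, 76.7% had no ATAC-seq peak, and the other 1095 form the set of accessible distal peaks used for comparison below.

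EL4 is a T lymphocyte lymphoma line of C57BL/6N mice, here the ATCC stock grown untreated in RPMI medium with serum. Peak lists of H3K27ac, H3K4me3, H3K9ac, H3K36me2 and H3K27me3 ChIP-seq and of ATAC-seq were analysed, with 2 replicates each. The replicates are technical according to the study's methods. They come from a single line without another genotype or treatment, so their spread measures the repeat of the assay and not the spread between cultures or animals. The line was checked against cell type markers. H3K4me3 and H3K27ac peaks of both replicates lay within 3 kb of the ends of 7 of 7 T cell markers (Cd3e, Cd3d, Cd3g, Lck, Thy1, Tcf7 and Bcl11b), of 1 of 5 B cell markers (Cd79a) and of 1 of 5 myeloid markers (Lyz2). The autosomal lists held between 17530 intervals (H3K4me3 replicate 2) and 45491 intervals (H3K27me3 replicate 1), with 26878 and 27434 for H3K27ac and 17101 and 18788 for ATAC-seq. They give positions without read counts or scores, so the sequencing depth behind a peak is unknown, and the absence of an ATAC-seq peak says that none passed the threshold of the caller. In a bulk culture, a mark on fewer cells and a weaker mark on all cells cannot be told apart.

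Acetylation of lysine 27 of histone H3 is placed by the acetyltransferases p300 and CBP at active enhancers and promoters, and H3K4me3 separates promoters from enhancers. ATAC-seq inserts adapters with the Tn5 transposase where DNA is free of nucleosomes, which at enhancers is the stretch where transcription factors bind, between the acetylated nucleosomes. H3K9ac is a second acetylation mark that is strongest at active promoters, and H3K36me2 is placed in broad domains over active gene bodies and the chromatin between genes by the NSD enzymes and ASH1L.

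The rule uses the outer ends of each gene, so a peak may still lie on a start of a shorter transcript inside a gene. This was so for 12 of the 3609 peaks (0.333%), which touched 14 annotated promoter windows of 12 genes, each window running from 250 bases before to 50 bases after a RefSeq start of GRCm38.p6. The 5 windows that lay wholly inside a peak are printed here to show what lies under the peaks at internal starts. They read 5′ to 3′ on the strand of the gene, and capitals mark matches on either strand to TGTGGT (the core of RUNX sites), AGGAAG (found in ETS sites) and TATAAA (the TATA box).
Fcamr, chr1:130800652-130800951, plus strand: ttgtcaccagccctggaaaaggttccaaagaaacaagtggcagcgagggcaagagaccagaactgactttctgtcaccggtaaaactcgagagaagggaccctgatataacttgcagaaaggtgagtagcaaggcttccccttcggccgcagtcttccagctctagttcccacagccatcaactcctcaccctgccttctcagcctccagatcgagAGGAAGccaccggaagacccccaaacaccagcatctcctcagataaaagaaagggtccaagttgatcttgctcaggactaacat
Myl10, chr5:136693426-136693725, plus strand: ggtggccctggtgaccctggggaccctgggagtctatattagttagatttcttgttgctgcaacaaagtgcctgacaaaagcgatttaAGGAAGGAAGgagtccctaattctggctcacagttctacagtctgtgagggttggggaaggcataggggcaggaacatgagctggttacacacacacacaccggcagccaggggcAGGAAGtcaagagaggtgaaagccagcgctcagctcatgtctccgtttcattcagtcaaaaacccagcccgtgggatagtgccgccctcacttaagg
Tbcel, chr9:42461379-42461678, minus strand: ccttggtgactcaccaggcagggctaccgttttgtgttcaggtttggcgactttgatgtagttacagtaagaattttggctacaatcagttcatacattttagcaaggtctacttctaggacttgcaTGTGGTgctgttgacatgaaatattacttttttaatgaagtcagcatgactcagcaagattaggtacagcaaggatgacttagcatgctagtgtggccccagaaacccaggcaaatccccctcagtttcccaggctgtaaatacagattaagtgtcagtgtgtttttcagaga
Ncoa4, chr14:32165539-32165838, plus strand: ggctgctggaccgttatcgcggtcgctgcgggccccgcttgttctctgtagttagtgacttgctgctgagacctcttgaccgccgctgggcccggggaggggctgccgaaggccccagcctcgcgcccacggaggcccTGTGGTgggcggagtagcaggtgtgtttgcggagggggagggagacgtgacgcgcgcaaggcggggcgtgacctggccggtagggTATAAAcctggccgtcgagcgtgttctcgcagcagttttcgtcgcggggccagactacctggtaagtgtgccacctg
Ifit1bl1, chr19:34601919-34602218, minus strand: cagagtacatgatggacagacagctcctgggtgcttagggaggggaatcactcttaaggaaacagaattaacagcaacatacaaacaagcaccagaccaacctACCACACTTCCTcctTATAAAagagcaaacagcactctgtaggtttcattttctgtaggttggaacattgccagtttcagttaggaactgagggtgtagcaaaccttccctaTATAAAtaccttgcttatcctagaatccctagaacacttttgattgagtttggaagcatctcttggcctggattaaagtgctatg
The motifs do not share letters with one another in these windows, although matches to AGGAAG overlap each other in Myl10. TGTGGT was in 7 of the 14 touched windows (50.0%) and in 16.7% of all 31396 autosomal windows. AGGAAG was in 7 of 14 (50.0%) against 35.1%, and TATAAA in 2 of 14 (14.3%) against 13.6%. A match says only that these letters are present, and 14 windows are too few to set the shares apart.

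The windows were mostly poor in CpG dinucleotides, the letter pair that marks the promoters of most widely used genes. The median was 3.5 CpG per window (range 0 to 29), compared with 7 over all windows and 22 over the windows that touched H3K4me3. The rule leaves out peaks that touch H3K4me3, so a value below both is partly set by the rule. The 14 windows are also few. The high value of 29 belonged to the printed window of Ncoa4, a cargo receptor that brings ferritin to autophagosomes. Its peak was 353 bp wide, lay 5.35 kb from the nearest ATAC-seq peak and touched no H3K9ac peak of either replicate. The peak at the internal start of Tbcel, a relative of tubulin cofactor E, was the widest of the 5 at 1202 bp and touched H3K9ac in both replicates, and the peak at Ifit1bl1, an interferon-induced gene, touched it in replicate 2 only. The remaining printed windows, in Fcamr (a receptor for immunoglobulins M and A) and Myl10 (a myosin light chain), lay in peaks of 676 bp and 776 bp without H3K9ac. All 5 peaks touched H3K36me2.

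The peaks were narrow. Their merged width had a median of 501 bp, with quartiles of 359 bp and 743 bp and a range of 202 to 5048 bp. The intervals of replicate 1 behind them had a median of 393 bp and those of replicate 2 of 413 bp. The accessible distal peaks were wider in both replicates, with a merged median of 725 bp (quartiles 461 bp and 1181 bp) and replicate medians of 564.5 bp and 595 bp. The interquartile ranges of the sets overlap, and the medians lie farther apart than the replicates of either set. A further 1257 peaks that lacked H3K4me3 and ATAC-seq but lay within 3 kb of a gene end had like widths, with a median of 507 bp and replicate medians of 410 bp and 432 bp. Widths come from the lists that chose the peaks, so they are given as a description. Of the base pairs in H3K27ac intervals of either replicate, a fraction of 0.762 was in both replicates within the peaks. It was 0.836 within accessible distal peaks and also 0.762 within the peaks near gene ends without ATAC-seq.

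**Figure D1:**
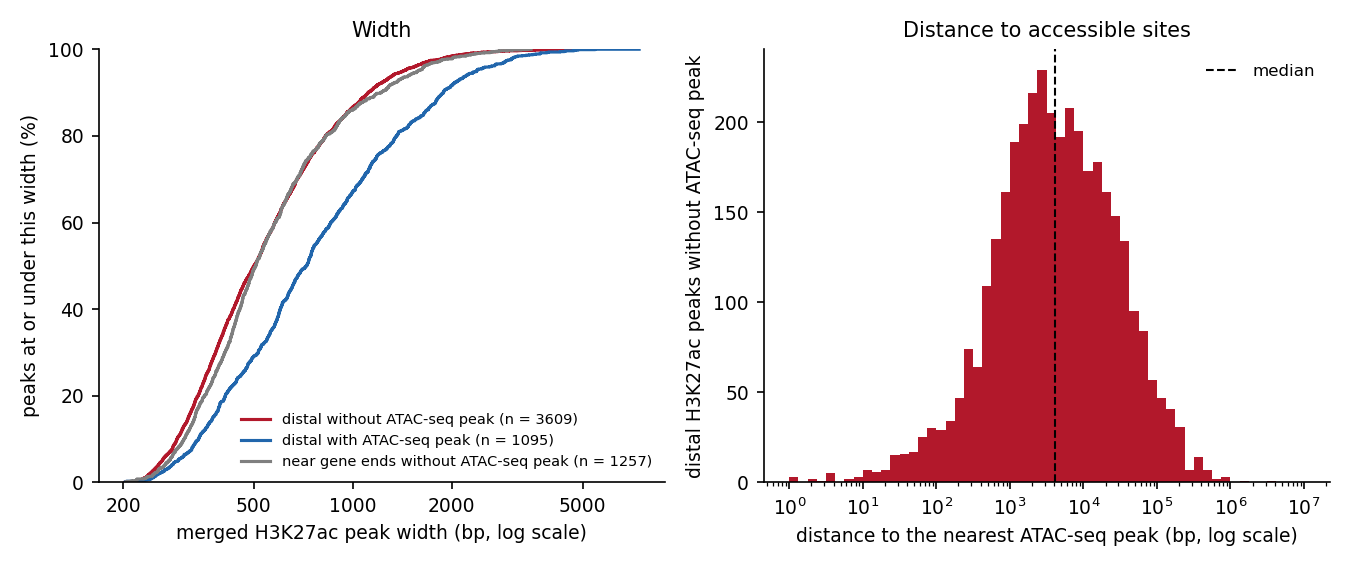
Left, cumulative share (percent) of H3K27ac peaks by merged width in bp on a log scale, for distal peaks without an ATAC-seq peak, distal peaks with one, and peaks near gene ends without one. The curves of both sets without ATAC-seq peaks run together with medians of 501 and 507 bp, left of the accessible distal peaks at 725 bp. Right, number of distal H3K27ac peaks without an ATAC-seq peak by distance to the nearest ATAC-seq peak in bp on a log scale, with the median of 4092 bp as a dashed line.

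About as many of the peaks lay within 5 kb of accessible chromatin as beyond it. The median distance to the nearest merged ATAC-seq peak was 4092 bp, with quartiles of 1178 bp and 15945 bp. Against the ATAC-seq list of replicate 1 alone the median was 6445 bp and against that of replicate 2 it was 4877 bp. Within 1 kb of an ATAC-seq peak were 792 peaks (21.9%) and within 5 kb 1941 (53.8%, with 44.8% and 50.5% against the ATAC-seq lists of replicates 1 and 2), whereas 335 (9.28%) were more than 50 kb away. The nearest ATAC-seq peak touched an H3K4me3 peak for 2521 of the 3609 (69.9%), touched H3K27ac without H3K4me3 for 743 (20.6%) and touched neither mark for 345 (9.56%). Of all 20273 merged ATAC-seq peaks 76.8% touched H3K4me3, so the share among these neighbours was not above that of ATAC-seq peaks at large. The median distance to an H3K4me3 peak was 4405 bp, compared with 12838 bp for accessible distal peaks. For the peaks near gene ends without ATAC-seq it was 2079 bp.

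At the ATAC-seq edge of the rule, peaks inside had the lower share with H3K9ac, and at the gene edge the values lay close together. The 140 peaks that stopped 1 to 100 bp short of an ATAC-seq peak had a median width of 448.5 bp. Of these 15 (10.7%) touched H3K9ac and 74.3% H3K36me2. The 173 peaks just outside the rule, which shared 1 to 100 bp with ATAC-seq peaks, had a median width of 443 bp. Of these 31 (17.9%) touched H3K9ac and 71.7% H3K36me2. The H3K9ac counts are small and were not split by replicate, so this difference was not set against a spread. The 152 peaks with a gene end 3 to 3.5 kb away and the 178 with one 2.5 to 3 kb away had medians of 536 bp and 517.5 bp and touched H3K9ac in 15.1% and 16.3%.

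Many of the peaks lay beside other acetylated stretches, as did the peaks near gene ends without ATAC-seq. Only H3K27ac peaks touched by both replicates were counted as neighbours here. The nearest other such peak was at a median of 416 bp (quartiles 163 bp and 4066 bp), and 2265 peaks (62.8%) had one within 1 kb. Among accessible distal peaks the median was 1401 bp, and 46.8% had one within 1 kb, and among the peaks near gene ends without ATAC-seq it was 423 bp, and 64.5% had one. The neighbour met the same rule for 1340 peaks (37.1%), was neither of these distal kinds nor a peak near gene ends without ATAC-seq for 1834 (50.8%), and was an accessible distal peak for 356 (9.86%). Joined over gaps of up to 5 kb, the peaks formed 2571 runs, of which 687 held 2 or more and together 1725 peaks (47.8%). Some 27 runs held 5 or more, and the longest held 11. In contrast, 718 peaks (19.9%) had no such H3K27ac peak and no merged H3K4me3 or ATAC-seq peak within 5 kb. H3K27ac peaks of a single replicate may still lie nearer. These isolated peaks had a median width of 526.5 bp, 21.3% touched H3K9ac and 75.8% touched H3K36me2, so they were neither narrower nor poorer in H3K9ac than the 2265 with an H3K27ac neighbour within 1 kb, which had a median width of 499 bp and shares of 14.1% and 82.2%.

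Few of the peaks carried the other acetylation mark. H3K9ac peaks touched 584 of 3609 (16.2%), compared with a background of 75.4% over all 23122 H3K27ac peaks and 57.6% over all 9896 distal ones, which include those with H3K4me3. In replicate 1 the share was 12.0% and in replicate 2 it was 12.6% (mean 12.3% ± 0.411, SD, n = 2), and 8.34% of the peaks touched H3K9ac in both. The accessible distal peaks stood at 38.4%, with 31.1% and 30.7% in the replicates, and the peaks near gene ends without ATAC-seq at 19.97%, with 15.6% and 15.2%. The replicates of each set lay within 1 point of each other and the values of the sets did not overlap. The share was lower by 22.2 points than in accessible distal peaks, with -19.2 points in replicate 1 and -18.1 in replicate 2. It was lower on 19 of 19 autosomes, where the difference was between -37.3 and -1.44 points. With 2 technical replicates an exact sign-flip test cannot give a p under 0.5, so no test was made. Where H3K9ac was present it covered a median of 43.3% of the peak.

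The gap was narrower between peaks of like width. The share with H3K9ac went from 2.15% of the 419 peaks up to 300 bp to 71.2% of the 156 over 1500 bp, and in accessible distal peaks from 5.00% to 79.6%. In each of the 6 width classes the peaks without ATAC-seq had the lower share. With the accessible distal peaks weighted to the same widths, their share was 26.8% and the difference -10.6 points, with -8.17 in replicate 1 and -7.24 in replicate 2. The difference was smaller after weighting than before and larger than the spread between replicates.

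**Figure D2:**
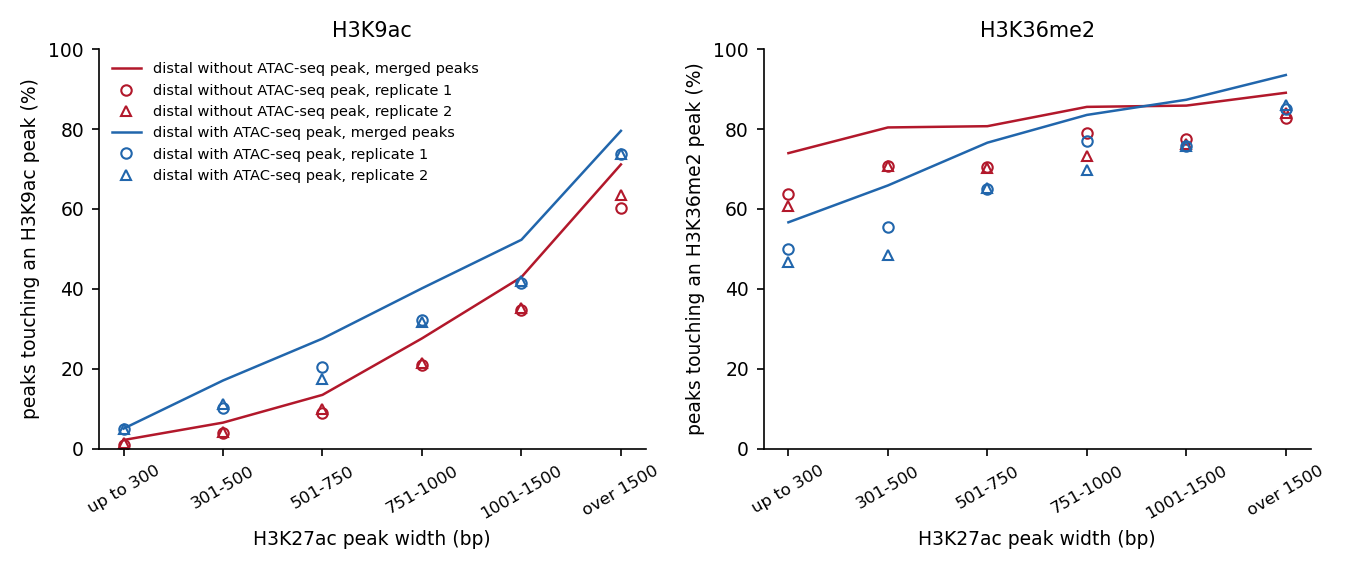
Share (percent) of H3K27ac peaks that touched an H3K9ac peak (left) and an H3K36me2 peak (right) by H3K27ac peak width in bp. Lines are merged lists, circles replicate 1 and triangles replicate 2 of the mark. Above 300 and up to 500 bp, 6.50% of the peaks without ATAC-seq and 17.1% of the accessible ones touched H3K9ac, while 80.4% and 65.9% touched H3K36me2.

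H3K36me2 covered most of the peaks. Its domains touched 2930 of 3609 (81.2%), compared with a background of 58.6% over all H3K27ac peaks and 68.3% over the distal ones. Both backgrounds include peaks with H3K4me3. Among the 3609 the share was 72.0% in replicate 1 and 70.8% in replicate 2 (mean 71.4% ± 0.823, SD, n = 2). Domains of both replicates touched 2224 peaks (61.6%). For 2692 peaks (74.6%) the whole width lay inside H3K36me2. The peaks near gene ends without ATAC-seq stood at 79.7%, with 70.9% and 68.3% in the replicates. High H3K36me2 was thus common to the sets without H3K4me3. Accessible distal peaks stood at 78.5%, with 68.7% and 66.1% in the replicates, a difference of 2.65 points (3.31 and 4.70 in the replicates). The share was higher than in accessible distal peaks on 13 of 19 autosomes and lower on 6.

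Over all widths this difference was small, and its direction depended on width. The peaks had the higher share in every width class up to 1000 bp and the lower share in the classes above. Up to 300 bp, 74.0% of the peaks and 56.7% of accessible distal ones touched H3K36me2, whereas over 1500 bp the shares were 89.1% and 93.5%. Weighted to the same widths, the difference was 8.54 points (9.27 and 11.8). The unweighted difference turned to -1.18 points when 50% of the shorter interval had to be shared. It was -1.0 when only H3K27ac peaks of at least 500 bp were kept and -1.52 when H3K27ac intervals up to 1 kb apart were merged.

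The H3K36me2 domains that held the peaks were long. Of 39920 autosomal domains, 1968 (4.93%) touched at least 1 peak, and these had a median width of 16399 bp compared with 5599 bp for all domains. A longer domain has more room for a peak, and this was not adjusted for. In 579 domains there were 2 or more peaks, with up to 13 in a single domain. The share in H3K36me2 was 74.3% within 100 bp of accessible chromatin, 80.7% from there to 1 kb, 86.6% at 1 to 5 kb, 66.9% at 50 to 100 kb and 44.2% of the 154 peaks over 100 kb away. The share with H3K9ac was between 10.7% and 19.4% in every distance class.

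**Figure D3:**
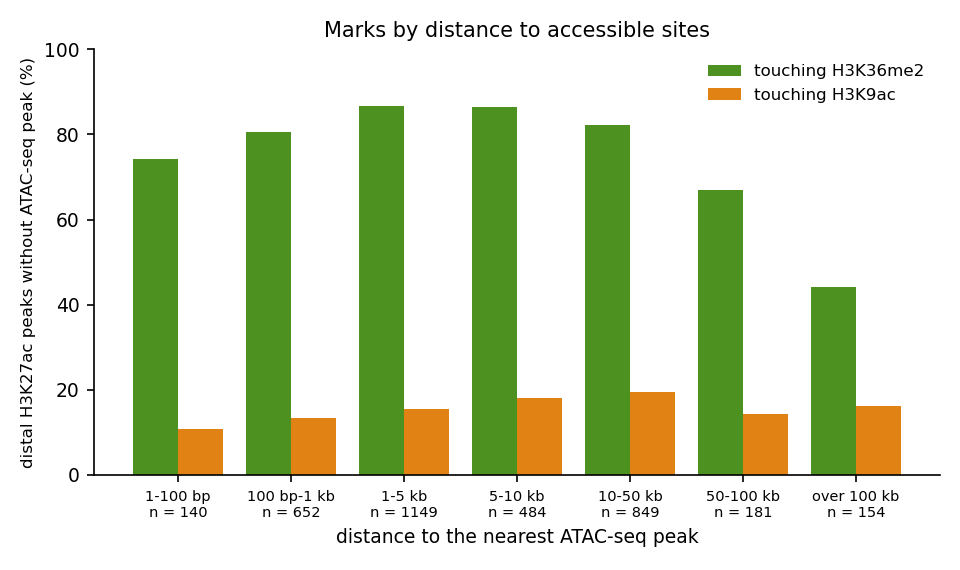
Share (percent) of distal H3K27ac peaks without an ATAC-seq peak that touched H3K36me2 (green) and H3K9ac (orange), by distance to the nearest merged ATAC-seq peak, with the number of peaks under each class. H3K36me2 stands at 74.3% within 100 bp, at 86.6% at 1 to 5 kb and at 44.2% over 100 kb, and H3K9ac between 10.7% and 19.4%.

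Combined, 2488 peaks (68.9%) had H3K36me2 without H3K9ac, 442 (12.2%) had both marks, 142 (3.93%) had H3K9ac only and 537 (14.9%) had neither. Peaks with both marks were the widest, with a median of 971 bp, and those with neither the narrowest at 428 bp. The latter also lay farther from ATAC-seq peaks, at a median of 7204 bp compared with 3501 bp for those with H3K36me2 only. Across autosomes the peaks made up between 11.01% (chromosome 8) and 20.2% (chromosome 18) of the H3K27ac peaks. H3K36me2 touched between 56.4% of them on chromosome 14 and 92.4% on chromosome 19, and H3K9ac between 11.3% on chromosome 17 and 22.6% on chromosome 14. The Polycomb mark H3K27me3, which marks silenced developmental genes, touched only 8 of the 3609 (0.222%, background 0.666% of all and 0.394% of distal H3K27ac peaks), and 2 of these in both replicates. Among the 8 were peaks inside Gna15, a G protein subunit of blood cells, Rnd1, a small GTPase, and Cdh13, a cadherin without a cytoplasmic tail.

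Most peaks lay inside genes, at a share near that of all distal H3K27ac peaks. A gene of any kind held 2514 (69.7%, exact 95% binomial interval 68.1 to 71.2%), compared with 66.9% of accessible distal peaks (64.1 to 69.7%). The background was 67.2% of all distal H3K27ac peaks and 79.1% of all H3K27ac peaks. The intervals cover counting error only and treat peaks as independent. As 47.8% of the peaks lay in runs of 2 or more, they may be too narrow even for that. Inside genes 84.2% of the peaks touched H3K36me2 and outside genes 74.3%, whereas H3K9ac was at 16.2% and 16.1%. In protein-coding genes with an annotated start in the promoter table, 1857 peaks lay at a median of 43.0 kb from the start. Of these 54.0% were nearer to the start than to the other end of the gene. The share was 51.9% for accessible distal peaks and 46.5% for the peaks near gene ends without ATAC-seq.

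Protein-coding genes that held a peak were long and mostly had a marked promoter. Of 20665 autosomal protein-coding genes 1172 held at least 1 peak (5.67%), among them 684 with 1 peak, 407 with 2 to 4 and 81 with 5 or more. Their median length was 81616 bp compared with 17491 bp for all protein-coding genes. For 16457 of these genes the promoter table gives a start. With H3K4me3 within 1 kb of it, 8.82% of 7270 genes held a peak, and without it 3.27% of 9187. In genes over 200 kb the shares were 48.2% and 16.5%, and in genes up to 20 kb 1.89% and 0.363%, so the order was the same at every length. Of the genes that held a peak 1066 (91.0%) also held an ATAC-seq peak elsewhere in their span, compared with 49.3% of all protein-coding genes. In genes of 50 to 100 kb the shares were 93.1% of those with a peak and 65.1% of all, and in genes over 200 kb 94.7% and 53.5%.

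**Figure D4:**
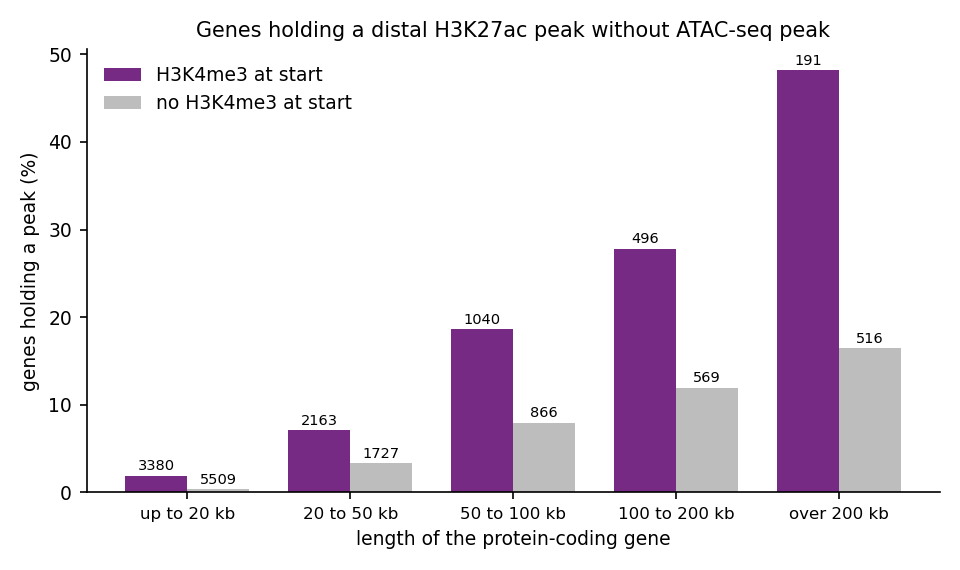
Share (percent) of autosomal protein-coding genes that held at least 1 distal H3K27ac peak without an ATAC-seq peak, by gene length, for genes with (purple) and without (grey) an H3K4me3 peak within 1 kb of the annotated start. Numbers over the bars count the genes in each class. The purple bar is higher in each of the 5 length classes, with 48.2% and 16.5% over 200 kb.

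Under the rule as stated Jazf1 and Ikzf1 held more of the peaks than any other gene, an order that depended on the settings. Jazf1 encodes a zinc finger partner of the NuA4 acetyltransferase complex and held 20 peaks in 300.6 kb (chr6:52768065-53068624). They were built from 22 intervals of 12858 bp in replicate 1 and 23 intervals of 12738 bp in replicate 2. H3K36me2 touched 20 of them in replicate 1 and 19 in replicate 2, and H3K9ac touched the same 3 in each. They lay 96.2 to 249 kb from the annotated start, and no H3K4me3 peak was at that start. Farther inside the gene H3K4me3 peaks lay between them, for example at 173 to 178 kb. More than 10 kb from gene ends Jazf1 held 13 and Ikzf1 18. Without H3K27ac replicate 1, where the remaining list alone sufficed, each held 33. With H3K27ac intervals up to 1 kb apart merged they held 2 and 5 and Nck2 held 6.

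Ikzf1 was the most densely filled of the 10 leading genes. It encodes Ikaros, a zinc finger factor of lymphoid development, and held 19 peaks in 88.0 kb (chr11:11684962-11772930), or 21.6 per 100 kb, a density that moves with the count of 5 to 33 peaks given above. Replicate 1 had 20 intervals of 14308 bp there and replicate 2 had 22 of 14588 bp. The 19 peaks were 379 to 1537 bp wide, and all touched H3K36me2 in each replicate. H3K9ac touched 5 of them, 3 in replicate 1 and a different 2 in replicate 2. Although the gene held 13 ATAC-seq peaks, 1 H3K27ac peak in it was an accessible distal one, and the 19 lay 0.296 to 7.78 kb from the nearest ATAC-seq peak.

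Other genes with many of the peaks differed in H3K36me2. Cdk6, the cyclin D-dependent kinase that drives entry into S phase, held 15 peaks in 190 kb, made of 17 intervals of 8567 bp in replicate 1 and 15 of 8712 bp in replicate 2. Of these 15, 7 touched H3K36me2 in replicate 1 and 9 in replicate 2. Immp2l, a subunit of the mitochondrial inner membrane peptidase, held 14 peaks in 932 kb, and none touched H3K36me2 in either replicate, while 4 and 3 touched H3K9ac. In the gene of the large scaffold protein Ahnak 16 peaks lay in 87.7 kb, with 15 and 16 of them in H3K36me2.

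The remaining genes among the 10 were Clec16a, a regulator of mitophagy, with 13 peaks, Arhgap26, a GTPase-activating protein, with 13, Nck2, an adaptor of receptor signalling, with 12, Ube2cbp, a ubiquitin ligase, with 12, and Nsmce2, a SUMO ligase of the SMC5/6 complex, with 11. Every one of these peaks touched H3K36me2 in the merged lists. H3K9ac touched 5 of the 13 in Clec16a in the merged lists, with 2 in replicate 1 and 4 in replicate 2. It touched none of the 12 in Nck2 or of the 12 in Ube2cbp. The median widths in Clec16a, Nck2 and Ube2cbp were 621 bp, 415 bp and 393 bp.

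**Figure D5:**
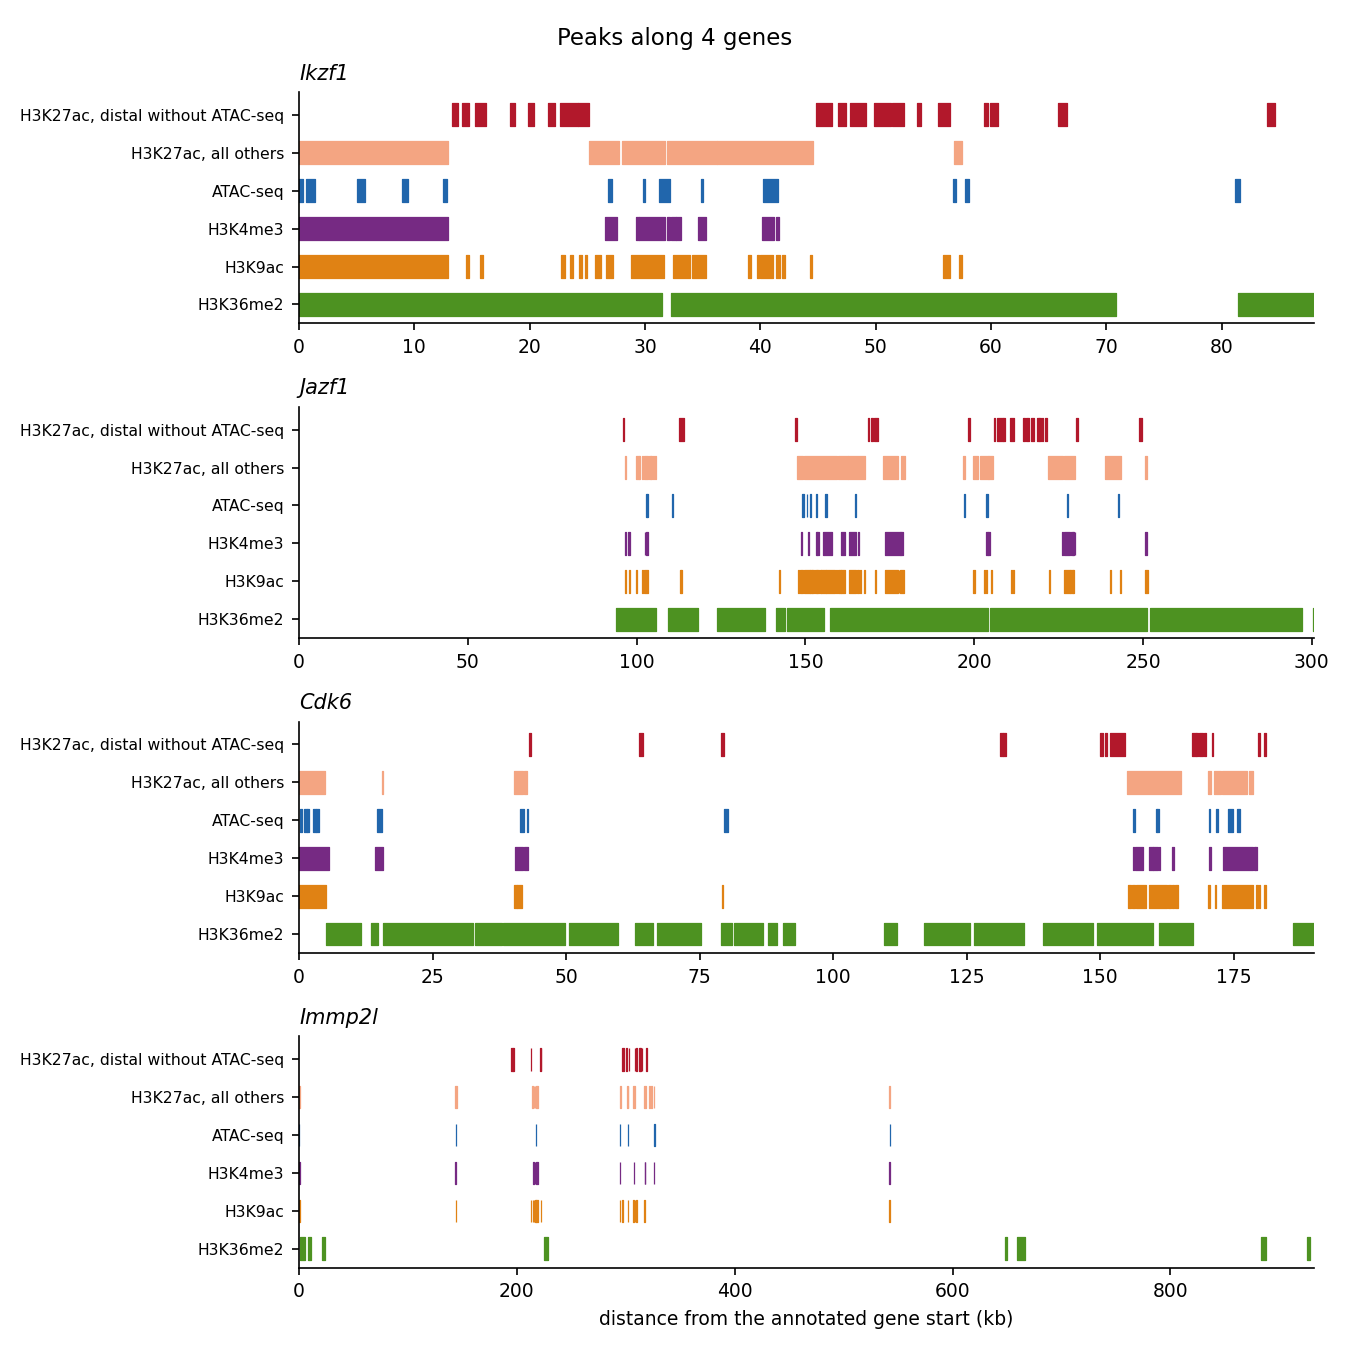
Merged peaks along Ikzf1, Jazf1, Cdk6 and Immp2l by distance in kb from the annotated start, with H3K27ac peaks of both replicates split into distal ones without ATAC-seq peaks (dark red) and all others (light red). In Ikzf1 19 peaks flank wide acetylated stretches inside H3K36me2 (green), and in Immp2l 14 peaks lie 196 to 319 kb from the start where none touched H3K36me2.

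T lineage transcription factors often held a peak. Of 23 in the list 12 did so (52.2%, background 5.67%), with 70 peaks in all, and 17 held one or had one within 100 kb (background 26.3%). The list's median gene length was 88.0 kb against 17.5 kb for all protein-coding genes, and Foxp1 reached 597 kb. Among protein-coding genes of 50 to 100 kb with H3K4me3 at the start 18.7% held a peak. At 100 to 200 kb the share was 27.8% and over 200 kb 48.2%. The list was not matched gene by gene for length. Besides Ikzf1 the counts were 10 in Ets1, which acts in T cell development and activation, 10 in Tox, a factor of CD4 lineage development, 8 in Foxp1, a factor of T cell quiescence, and 7 in the ETS factor Fli1. All 10 peaks in Ets1 touched H3K36me2 and none touched H3K9ac. They were 320 to 792 bp wide and lay 0.223 to 2.51 kb from an ATAC-seq peak.

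Tcf7, which encodes TCF-1, a factor that starts the T cell programme, held 3 peaks of 583 to 1703 bp in 36.9 kb. They lay 13.0 to 17.3 kb from the nearest ATAC-seq peak, all touched H3K36me2 and 1 touched H3K9ac. Bcl11b, a factor of T cell commitment, held a single peak of 278 bp without H3K9ac or H3K36me2, 1.21 kb from an ATAC-seq peak. Ikzf3 held 4 peaks, Runx1 held 3, Tcf12 and Foxo1 held 2 each and Runx3 held 1. Gata3 and Myb held none, and the nearest lay 51.0 kb and 23.7 kb away.

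Among genes of the T cell receptor and the cell surface 5 of 30 held a peak (16.7%, background 5.67%), and 19 (63.3%, background 26.3%) were at or within 100 kb of one. The median length of this list was 22.3 kb, and among protein-coding genes of 20 to 50 kb with H3K4me3 at the start 7.07% held a peak. Some members were longer, such as Fyn with 196 kb and Themis with 215 kb. With H3K4me3 at the start, the share was 27.8% at 100 to 200 kb and 48.2% over 200 kb. Fyn, a kinase of receptor signalling, held 1 peak of 1989 bp with both marks, and Themis and the chemokine receptor gene Ccr7 held 1 each. Near Il7r, the receptor of a survival cytokine, a peak lay 3.70 kb from the gene, and near Il2ra, the high-affinity interleukin 2 receptor chain, 5.09 kb.

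Of 13 growth and leukemia genes, with a median length of 27.03 kb, 5 held a peak (38.5%, background 5.67%). They were Cdk6 with 15, Gfi1, a repressor of blood cell development, with 3, and the survival gene Bcl2 and the cyclins Ccnd2 and Ccnd3 with 1 each. Among protein-coding genes of 20 to 50 kb with H3K4me3 at the start 7.07% held a peak. At 100 to 200 kb, the class of Cdk6 (190 kb) and Bcl2 (176 kb), the share was 27.8%. With 13 genes of unlike length, the excess over the background was not adjusted for length. Of 25 chromatin regulators 6 held a peak (24.0%, background 5.67%). The list's median length was 77.8 kb, and its share was near the 18.7% of protein-coding genes of 50 to 100 kb with H3K4me3 at the start. They were the deacetylase Hdac7 with 4, the H3K4 methyltransferase Kmt2a with 4, and Nsd2 and Nsd3, both H3K36 methyltransferases, Hdac4 and Arid1a with 1 each. One of the 4 peaks in Hdac7 covered 270 of the 300 bases of an internal promoter window. Of 24 genes of other cell types none held a peak (background 5.67%). A peak lay within 100 kb of 6 of them, a share near the background of 26.3%. The 24 genes were short, with a median of 8.67 kb, and 1 of those with a start in the promoter table had H3K4me3 there. Among protein-coding genes up to 20 kb without H3K4me3 at the start 0.363% held a peak. The absence of peaks in 24 genes therefore does not set this list apart.

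The 5 widest peaks were 3930 to 5048 bp wide and touched H3K9ac in both replicates. The widest (chr12:107123157-107128204) was outside genes, made of 1 interval of 4989 bp in replicate 1 and 1 of 5016 bp in replicate 2, and lay 1.36 kb from the nearest ATAC-seq peak. The others lay inside Ergic1, a protein of the path from endoplasmic reticulum to Golgi (4174 bp), Septin9, a GTP-binding cytoskeletal protein (4030 bp), Wdfy2, an endosomal protein (4000 bp), and Slc49a4, a lysosomal transporter (3930 bp). The peaks in Ergic1 and Wdfy2 were 27.4 kb and 31.2 kb from the nearest ATAC-seq peak, and that in Wdfy2 was the one outside H3K36me2.

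The 5 peaks farthest from an ATAC-seq peak lay 755 to 3298 kb away and touched H3K36me2 in neither replicate. The farthest (chr14:82917542-82918037) was 496 bp wide, in a stretch whose nearest protein-coding gene, Pcdh17, a protocadherin, was 1526 kb away. The next, 1384 kb from an ATAC-seq peak, was 1425 bp wide and touched H3K9ac in both replicates. Of the 5 closest, at 1 to 2 bp, 3 touched H3K36me2 in both replicates, and none touched H3K9ac. They included peaks inside C2cd3, a protein of the centriole, Prdm10, a zinc finger factor, Flnc, a filamin, and Ell, an elongation factor of RNA polymerase II.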

How the data were processed

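ChIP-seq for 5 histone marks and ATAC-seq of EL4 cells were analysed as 12 peak lists of 3 columns (chromosome, start and end on GRCm38), 2 technical replicates per set. Per the labels and the study's methods, the authors aligned reads with STAR 2.5, removed duplicates with Picard, used MACS2 for the narrow marks (H3K27ac, H3K9ac, H3K4me3) and for ATAC-seq, and epic for the broad domains of H3K36me2 and H3K27me3. The deposited lists hold positions only, without counts, scores or signal. The input and RNA-seq samples are not analysed here. The peaks, gene lists and measures were chosen with earlier results of these data known.

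Intervals of both replicates that overlapped or adjoined were merged, and 1 shared bp counted as touching. Gene spans (47042 autosomal genes) and promoter windows came from RefSeq on GRCm38.p6. The accessible distal peaks were weighted to the width classes of the peaks without ATAC-seq. The genes named were the 10 holding the most peaks, with list members holding a peak or within 100 kb of one, and the regions named were the 5 widest, 5 farthest from and 5 closest to an ATAC-seq peak. The peaks with H3K27me3 and the internal promoter windows were named after their values were seen. No p-value was computed. Python 3.11.15, numpy 2.4.6, pandas 2.3.3 and scipy 1.17.1 were used, and all interval functions were checked against bedtools 2.31.1 on 23122 peaks and tested on simulated data. Some list members are not reported here. Alternatives covered the overlap, merging, width, distance and gene rules and each replicate left out.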

Additional observations from a re-analysis of the deposited data

How the results depend on the processing

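No paired analysis was possible because the results come from no test; the values of each mark replicate, read over both sets of peaks, are given beside each difference. The H3K9ac difference to accessible distal peaks stayed negative in every alternative run. It was -30.1 points when 50% of the shorter interval had to overlap and -21.1 with peaks of at least 500 bp. With ATAC-seq peaks of both replicates only it was -20.3, and more than 10 kb from gene ends -20.0. It was -17.0 with H3K27ac intervals within 1 kb merged, and between -24.9 and -18.1 with a replicate left out. With no ATAC-seq peak within 1 kb it was -10.6, but this run moved 792 peaks that touched no ATAC-seq peak into the comparison set. The share of the remaining peaks with H3K9ac was 17.1% in that run, compared with 16.2% under the rule as stated. The H3K36me2 difference reversed to -1.18, -1.0 and -1.52 points with the 50% overlap, the 500 bp minimum and the 1 kb merging. It was 8.34 over base pairs covered in both replicates, 3.85 with H3K27ac peaks of either replicate, 3.82 with ATAC-seq peaks of both replicates, and between 2.61 and 4.73 with a replicate left out.

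The number of peaks was 5813 over base pairs of both replicates and 5879 with either replicate. It was 1810 at 500 bp or more, 2205 beyond 10 kb and 1566 with 1 kb merging. With a replicate left out it was 3609 to 5578, the highest without H3K27ac replicate 1. Leaving out an H3K27ac replicate also dropped the condition that both replicates touch a peak, for every value given for these runs. In the settings over base pairs of both replicates, either replicate, 500 bp or more, ATAC-seq peaks of both replicates and 1 kb merging, the median width was 328, 362, 741.5, 517 and 725 bp, and between 347 and 512 bp with a replicate left out. The ATAC-seq distance was 6314 bp over base pairs of both replicates, 8191.5 bp with ATAC-seq peaks of both replicates, 7286 bp beyond 1 kb by construction, 11217 bp with 1 kb merging, and 3460 to 6785 bp with a replicate left out, the highest without ATAC-seq replicate 2.

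The share with H3K9ac was 9.69% over base pairs of both replicates, 10.3% with either replicate, 16.6% with the 50% overlap, 26.9% at 500 bp or more, 18.3% with ATAC-seq peaks of both replicates, 17.1% with none within 1 kb, 14.6% beyond 10 kb, 22.3% with 1 kb merging, and 11.8 to 17.7% with a replicate left out. The share with H3K36me2 was 60.0% over base pairs of both replicates, 77.9% with the 50% overlap, 83.4% at 500 bp or more, 80.0% beyond 10 kb, and 70.8 to 81.4% with a replicate left out. The share inside genes was 71.3% with either replicate, 72.3% beyond 10 kb, 67.2% with 1 kb merging, 61.1% with protein-coding genes only, and 69.5 to 70.9% with a replicate left out. Over the 10 leading genes and the 5 lists, 120 of 150 and 66 of 75 counts stayed within 1.5 times in the settings that can change which peaks meet the rule. The lists carry no depth, so a site under the threshold of the caller cannot be told from one without signal.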

Other observations

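A further 2270 autosomal H3K27ac peaks met the same rule but were touched by 1 replicate only. Their median width was 242 bp, 1.01% touched H3K9ac and 79.8% touched H3K36me2. They lay at a median of 3888.5 bp from the nearest ATAC-seq peak, and 74.0% were inside a gene.

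The lists also hold intervals on chromosome X, which the rule leaves out. The study's methods state that reads on the sex chromosomes were discarded, so how these intervals were made is not known here and their shares cannot be set against those of the autosomes. On chromosome X 79 of 635 H3K27ac peaks of both replicates (12.4%) met the same criteria. Their median width was 444 bp and the median distance to an ATAC-seq peak 4543 bp. H3K9ac touched 16 of them (20.3%) and H3K36me2 touched 15 (18.99%). Among the 23 accessible distal peaks of chromosome X the shares were 47.8% and 21.7%.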
